A study of Rattus norvegicus with 15 samples.

Results

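The genes described here are 10 that mark or steer the oligodendrocyte lineage: the transcription factors Sox10, Olig1, Olig2 and Nkx2-2, the growth factor receptor Pdgfra, the proteoglycans Cspg4 and Bcan, the orphan receptor Gpr17, the receptor phosphatase Ptprz1 and the sialidase Neu4. They were taken by name, through every probe set (a set of short probes for 1 transcript) that the array annotation gives exactly 1 of these symbols. That found 11 probe sets for 8 of the 10 genes, out of 31042 probe sets that are not controls. Gpr17 and Neu4 matched no probe set and were not analysed here. Olig2, Ptprz1 and Bcan had 2 probe sets each and the other 5 genes had 1.

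The tissue was the ventral tegmental area, where dopamine neurons that project to the nucleus accumbens and cortex have their cell bodies. The series title names alcohol-preferring (P) rats, a line bred for high voluntary alcohol intake, and loss-of-control drinking, so all animals are taken to be of that line. The labels give 7 rats with ethanol treatment and 8 age-matched controls that had water, with 1 array per animal. The labels used here state no age, sex, dose or time since the last drink. Th, which encodes the enzyme that limits dopamine synthesis, was at 14.94 ± 0.22 (SD, n = 7) log2 units with ethanol and 14.80 ± 0.26 (SD, n = 8) with water. The dopamine transporter Slc6a3 averaged 14.66 ± 0.25 (SD, n = 7) and 14.51 ± 0.25 (SD, n = 8), so markers of the labelled region were bright in both groups.

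Oligodendrocyte precursors are dividing glial cells that persist in the adult brain and can become myelin-forming oligodendrocytes. Olig2 and Sox10 act throughout the lineage, Olig1 and Nkx2-2 act in differentiation, and Pdgfra and Cspg4, also called NG2, are surface proteins of precursors that are lost as the cells mature. Some of these genes are also used by other cells: astrocytes make Ptprz1 and Bcan, fibroblasts make Pdgfra and pericytes make Cspg4. Arrays of tissue cannot tell fewer cells of a type from less RNA per cell.

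Values are log2 signals after RMA, which corrects background, gives all arrays the same distribution and merges each probe set into 1 value. They compare the same probe set between rats, and not one gene with another. Probe sets whose mean over all 15 arrays was below the 40th percentile (log2 6.94) were left out of the main test. Of the 11 probe sets 9 passed, for 7 genes, and both Olig2 probe sets were below it. Ethanol was compared with water by limma, with p-values adjusted by the Benjamini-Hochberg method over all 18625 kept probe sets, and an adjusted p below 0.05 was called a change.

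Of the lineage genes, Olig1 fell and no other passed the test. Olig1 fell to 0.825 of the water level, while the differences of the other 8 kept probe sets lay between -0.10 and 0.09 log2 units. So 1 of 9 probe sets was called, against 0.929% of all kept probe sets. The same 1 of 9, Olig1, had an unadjusted limma p below 0.05. The share of all kept probe sets with such a p was not computed. The counts of unadjusted p here and in the lists below therefore have no comparison and are not read as results. By direction, 1 was called lower (0.542% of all kept probe sets) and 0 higher (0.387%). In 0 of the 9 did the values of the groups not overlap at all, against 0.623% of all kept probe sets. The median difference of the 9 was -0.017 log2 units, and that of all kept probe sets was 0.0062. The SD between rats, pooled over both groups, was 0.074 to 0.201 log2 units for the 9 probe sets (median 0.141), against a median of 0.111 for all kept probe sets.

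**Figure D1:**
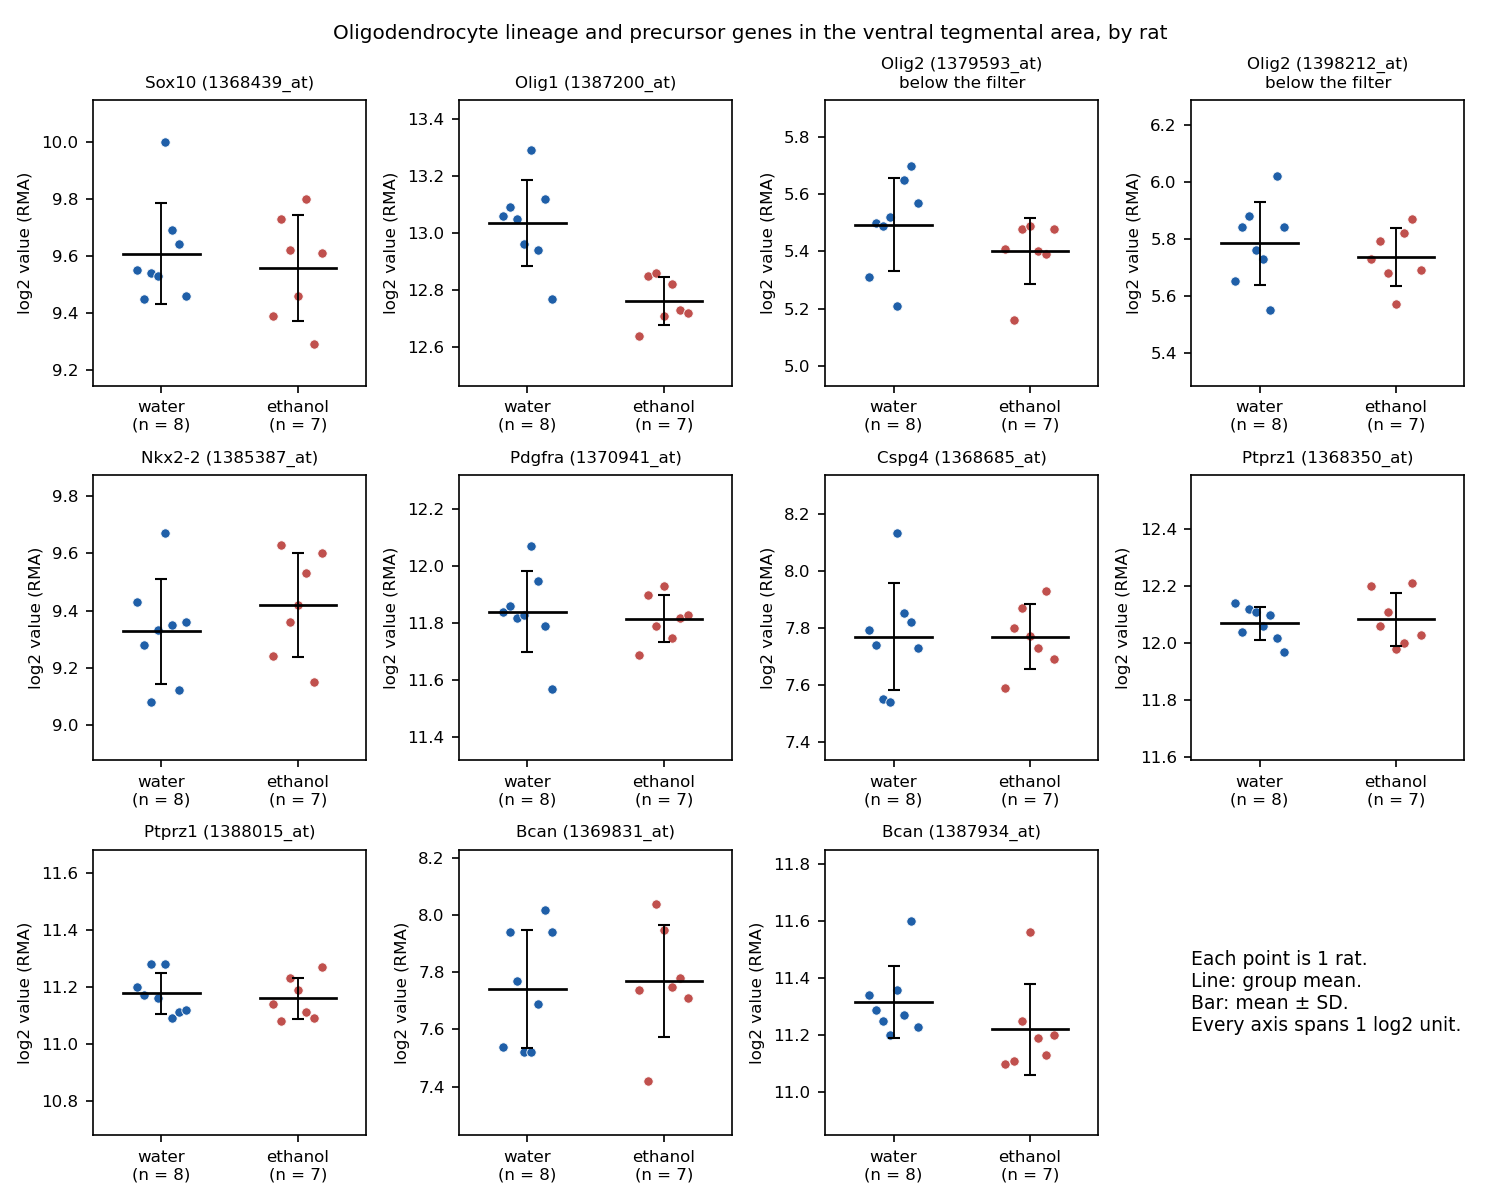
Log2 values of the 11 probe sets in each rat, water (n = 8, blue) beside ethanol (n = 7, red), with the group mean (line) and SD (bar); every vertical axis spans 1 log2 unit. In the Olig1 panel all 7 ethanol rats lie below the water mean and only water rat 8 lies among them; all 7 ethanol rats are also below the water mean for the dim Olig2 probe set 1379593_at, but 6 of them lie within the water range.

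Among the transcription factors, Olig1 is a basic helix-loop-helix protein that oligodendrocytes need to mature and to repair myelin. Its values were 12.64, 12.85, 12.86, 12.71, 12.82, 12.73 and 12.72 in ethanol rats 1, 2, 4, 5, 6, 7 and 8. In water rats 1 to 8 they were 13.06, 13.09, 13.05, 12.96, 13.29, 12.94, 13.12 and 12.77. All 7 ethanol rats were below the water mean, 4 of them were below every water rat, and water rat 8 was the only control within the ethanol range. The means were 12.76 ± 0.08 (SD, n = 7) with ethanol and 13.04 ± 0.15 (SD, n = 8) with water.

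The Olig1 difference was -0.28 log2 units (SE 0.062, 95% confidence interval -0.408 to -0.145, limma adjusted p = 0.0452). The exact two-sided permutation test of this probe set alone, over all 6435 divisions of the 15 rats, gave an unadjusted p of 0.00155. The limma call stood close to the threshold. It held in only 2 of the 15 fits with 1 rat left out, those without ethanol rat 4 (adjusted p = 0.0489) and without water rat 8 (adjusted p = 0.0096), and the other 13 gave adjusted p from 0.0524 (without water rat 5) to 0.104 (without ethanol rat 1), with differences from -0.315 to -0.24 over all 15. It also ended with no filter on dim probe sets (adjusted p = 0.0652) and with a filter at the 20th percentile (0.0567).

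Olig2, the close relative of Olig1 and its neighbour on chromosome 11 in the GRCr8 gene table, specifies the lineage from early progenitors onward. Both of its probe sets were dim, so they were tested only in the fit to all 31042 probe sets, where 0.448% of probe sets were called. Probe set 1379593_at ranged from 5.16 to 5.49 (median 5.41) in ethanol and from 5.21 to 5.70 (median 5.51) in water rats, a difference of -0.09 log2 units (SE 0.07, limma adjusted p = 0.704). As for Olig1, all 7 ethanol rats were below the water mean, but 6 of the 7 lay within the water range. Probe set 1398212_at ranged from 5.57 to 5.87 (median 5.73) in ethanol and from 5.55 to 6.02 (median 5.80) in water rats, a difference of -0.047 log2 units (SE 0.063, limma adjusted p = 0.844). The pair hardly varied together across the 15 rats (Pearson r = 0.129, Spearman rho = 0.177, permutation p = 0.643 and 0.524, adjusted over the 3 genes with 2 probe sets 0.949 and 0.772; r = 0.201 without the 2 rats farthest from the median).

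Sox10 activates the genes of myelin and is present at all stages of the lineage. It ranged from 9.29 to 9.80 (median 9.61) in ethanol rats and from 9.45 to 10 (median 9.55) in water rats. The ethanol values reached below and the water values above the other group, and 5 of 7 ethanol rats lay within the water range. The means were 9.56 ± 0.18 (SD, n = 7) and 9.61 ± 0.18 (SD, n = 8), and the difference was -0.05 log2 units (SE 0.087, 95% confidence interval -0.236 to 0.132, limma adjusted p = 0.848).

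Nkx2-2, a homeodomain repressor that rises as precursors begin to differentiate, ranged from 9.15 to 9.63 (median 9.42) in ethanol and from 9.08 to 9.67 (median 9.34) in water rats. All 7 ethanol rats lay within the water range. The difference was 0.09 log2 units (SE 0.088, 95% confidence interval -0.096 to 0.275, limma adjusted p = 0.713), and an increase to 1.21 of the water level lay at the upper end of that interval.

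Among the surface proteins, Pdgfra is the receptor through which PDGF-A drives precursors to divide and survive. It ranged from 11.69 to 11.93 (median 11.82) in ethanol rats and from 11.57 to 12.07 (median 11.83) in water rats. The ethanol rats all lay within the range of the controls. The difference was -0.03 log2 units (SE 0.06, limma adjusted p = 0.891), and its 95% confidence interval of -0.154 to 0.1 spans 0.899 to 1.07 of the water level.

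Cspg4, the NG2 proteoglycan, ranged from 7.59 to 7.93 (median 7.77) in ethanol and from 7.54 to 8.13 (median 7.77) in water rats. Both groups averaged 7.77, and the SE of the difference was 0.075 log2 units (95% confidence interval -0.16 to 0.159, limma adjusted p = 0.998).

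Ptprz1 encodes a receptor phosphatase with a large chondroitin sulfate ectodomain that binds pleiotrophin and contactin. Probe set 1368350_at averaged 12.08 ± 0.09 (SD, n = 7) with ethanol and 12.07 ± 0.06 (SD, n = 8) with water, a difference of 0.01 log2 units (SE 0.042, limma adjusted p = 0.927). Probe set 1388015_at averaged 11.16 ± 0.07 (SD, n = 7) and 11.18 ± 0.07 (SD, n = 8), a difference of -0.017 log2 units (SE 0.041, limma adjusted p = 0.903). These were the narrowest intervals of the 11, -0.075 to 0.102 and -0.104 to 0.071 log2 units, although the pair did not vary together from rat to rat (Pearson r = 0.018, Spearman rho = 0.0821, permutation p = 0.949 and 0.772, adjusted 0.949 and 0.772; r = 0.318 without the 2 farthest rats).

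Bcan encodes brevican, a chondroitin sulfate proteoglycan of the matrix around synapses and nodes. Probe set 1387934_at ranged from 11.10 to 11.56 (median 11.19) in ethanol and from 11.20 to 11.60 (median 11.28) in water rats. Of the 7 ethanol rats 5 were below every water rat, while ethanol rat 5 stood above all but 1 control. Its difference was -0.10 log2 units (SE 0.069, 95% confidence interval -0.243 to 0.049, limma adjusted p = 0.603). Without ethanol rat 5 it was -0.153, the largest of its values with 1 rat left out, where the smallest adjusted p was 0.281. The dimmer probe set 1369831_at differed by 0.03 log2 units (SE 0.096, limma adjusted p = 0.935), the opposite sign, and had 3 of 7 ethanol rats below the water mean. Across rats the pair of Bcan probe sets gave Pearson r = 0.423 and Spearman rho = 0.304 (permutation p = 0.117 and 0.271, adjusted 0.351 and 0.772; r = 0.399 without the 2 farthest rats).

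**Figure D2:**
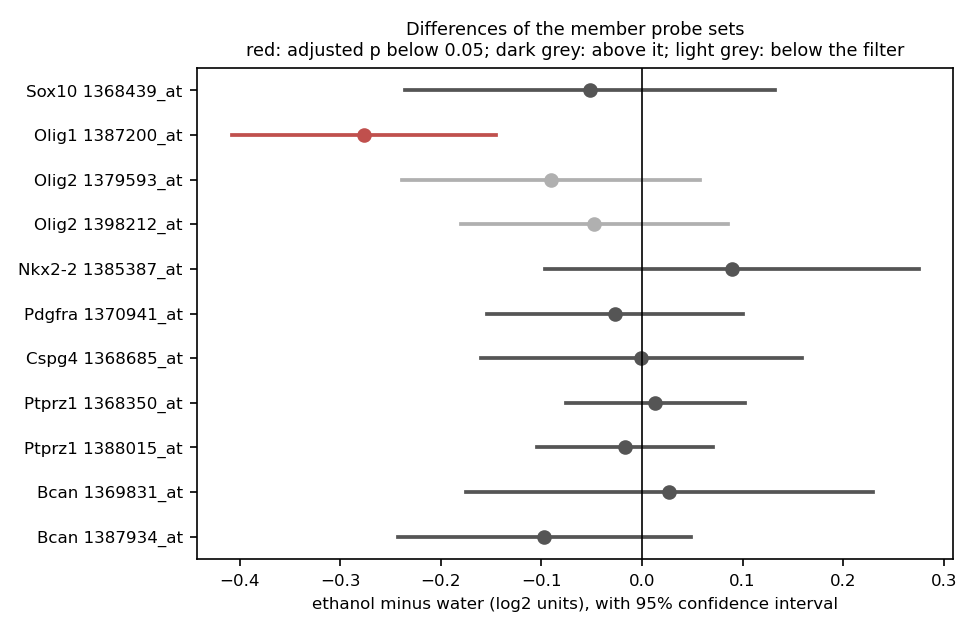
Ethanol minus water in log2 units for the 11 probe sets, each point with limma's 95% confidence interval; red marks an adjusted p below 0.05, dark grey one above it, and light grey the 2 Olig2 probe sets below the filter. Only the Olig1 interval, -0.408 to -0.145, lies wholly on 1 side of 0.

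Olig1 was also taken relative to the other lineage genes within each array. Each such value is the Olig1 difference less the difference of the other gene. The other differences were all smaller in size, so the negative sign was fixed in advance. Olig1 was singled out for its difference, so these values are a description with no test. The difference between the groups in Olig1 minus the other gene was -0.18 log2 units for Bcan, -0.23 for Sox10, -0.25 for Pdgfra, -0.28 for Cspg4, -0.29 for Ptprz1 and -0.37 for Nkx2-2. With 1 rat left out, the value for Bcan ran from -0.212 to -0.114 (the latter without ethanol rat 5).

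Some markers of mature oligodendrocytes fell as well. Of 14 such genes 13 were measured and 4 fell, Ugt8, Fa2h, Mal and Cldn11, with none higher (4 of 13 called, against 1.14% of 10256 genes when each gene is represented by its brightest kept probe set). The lists were chosen with earlier results of these data known, so this share describes the list and does not test it. The list median was -0.16 log2 units, against 0.0017 over all those genes, and 12 of the 13 means were lower in ethanol rats. The exception was Opalin, a membrane protein of mature oligodendrocytes, at 0.20 (SE 0.081, limma adjusted p = 0.327). Ugt8, which makes the myelin lipid galactosylceramide, fell by 0.69 log2 units (SE 0.106, limma adjusted p = 0.00413), a call that held with any 1 rat left out, although its second probe set, dim and below the filter, was at 0.06 (limma adjusted p = 0.708 in the fit without filter). Fa2h, which hydroxylates myelin fatty acids, fell by 0.43 (SE 0.084, limma adjusted p = 0.021), and leaving out ethanol rat 7 ended that call (0.0567). Mal, a myelin proteolipid, fell by 0.39 (SE 0.083, limma adjusted p = 0.0369) and the tight junction protein gene Cldn11 by 0.25 (SE 0.054, limma adjusted p = 0.0369). The other kept probe set of Cldn11 was at -0.37 and did not pass (SE 0.119, limma adjusted p = 0.194). Single rats ended these last calls too: Mal held in 6 of 15 fits (without ethanol rats 2 or 4, or water rats 2, 4, 5 or 8) and Cldn11 in 4 (without ethanol rat 2, or water rats 4, 5 or 8), with adjusted p up to 0.0838 and 0.0879 in the others. Both also ended with no filter on dim probe sets (adjusted p = 0.0501 and 0.0584). The mean of the list ran from 12.86 to 13.18 in ethanol and from 13.10 to 13.56 in water rats. With this list mean as a covariate the Olig1 difference was -0.14 log2 units (SE 0.062, limma adjusted p = 0.245), against -0.28 without it, and the call ended. The list mean itself differed between the groups by -0.205 log2 units, so this fit takes out part of the group difference; in it 368 probe sets were called against 173, and Nkx2-2 was at 0.28 (adjusted p = 0.118). With the mean of 6 dopamine neuron markers as a covariate the Olig1 difference was -0.27 (adjusted p = 0.0922), and the call ended as well.

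Genes of committed and newly formed oligodendrocytes, the stage between precursors and myelinating cells, were read as a list of 9. This list too was chosen with earlier results of these data known, so its counts are a description. Of the 8 measured, each by its brightest kept probe set, 2 were called lower and none higher, where 1.14% of all genes were called. Of the 8 means 7 were lower in ethanol rats, and the median was -0.14 log2 units. Rras2, a small GTPase of the Ras family, averaged 9.85 ± 0.08 (SD, n = 7) with ethanol and 10.15 ± 0.15 (SD, n = 8) with water, a fall of 0.30 log2 units (SE 0.062, limma adjusted p = 0.0265). Its second probe set gave -0.33 (limma adjusted p = 0.0155). Leaving out any of ethanol rats 2, 4, 5, 6 and 8 or of water rats 1 and 3 ended the first call, so it held in 8 of 15 such fits (adjusted p up to 0.0693). It also ended with the mature list mean as a covariate (log2 -0.29, adjusted p = 0.0875).

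Nfasc encodes neurofascin, a cell adhesion molecule that oligodendrocytes and neurons make in different splice forms at the node of Ranvier. Its brightest probe set averaged 11.11 ± 0.08 (SD, n = 7) with ethanol and 11.40 ± 0.07 (SD, n = 8) with water, a difference of -0.29 log2 units (SE 0.041, limma adjusted p = 0.00171) that was called in all 15 fits with 1 rat left out. The other 4 probe sets of Nfasc disagreed in sign, at -0.30, 0.15, 0.14 and 0.12 log2 units, and none of them passed (limma adjusted p from 0.0872 to 0.492). Enpp6, a choline phosphodiesterase that marks newly formed oligodendrocytes, was at 8.59 ± 0.20 (SD, n = 7) against 9.03 ± 0.33 (SD, n = 8), or -0.44 log2 units (SE 0.13), and did not pass (limma adjusted p = 0.151). Bmp4, a secreted factor, was at -0.19 (limma adjusted p = 0.268).

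Other transcription factors of the lineage did not pass. Of 21 listed, 18 were measured and none was called by limma, none had an unadjusted p below 0.05, and 9 had higher and 9 lower means in ethanol rats (median 0.0095). Hes5, a Notch target that holds precursors back, was at 0.13 log2 units (SE 0.068) and Hes1 at 0.11 (SE 0.075). Sox4 was at -0.11 (SE 0.072) and Id2, an inhibitor of differentiation, at -0.14 (SE 0.097). Myrf, the factor that switches on myelin genes, was at -0.05 (SE 0.084, limma adjusted p = 0.842).

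Other surface and matrix genes of precursors were not called either. Of 12 listed, 9 were measured, none passed, 1 had an unadjusted p below 0.05, and the median was -0.089 log2 units. That 1 was Vcan, versican, a lectican of precursors, at 9.93 ± 0.11 (SD, n = 7) with ethanol and 10.20 ± 0.18 (SD, n = 8) with water (log2 -0.27, SE 0.074, limma adjusted p = 0.122). All 5 probe sets of Vcan had lower means in ethanol rats, from -0.27 to -0.11 log2 units, and they share transcripts, so they are not independent. Tnr, the tenascin that binds brevican, was at -0.15 (SE 0.087), Rlbp1 at 0.14 (SE 0.079) and Cdo1 at -0.09 (SE 0.056).

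Among lecticans, link proteins and tenascins, the family and partners of brevican, 6 of 9 genes were measured and none was called by limma, 2 had an unadjusted p below 0.05 (Vcan and Hapln3), and 5 of the 6 means were lower in ethanol rats (median -0.19). Besides Vcan and Tnr, the link protein Hapln3 was at 0.23 log2 units (SE 0.067, limma adjusted p = 0.15) and the cartilage and perineuronal net proteoglycan Acan at -0.23 (SE 0.176). Of the closest relatives of the 10 genes, 2 of 10 listed were measured: Pdgfrb at -0.04 (SE 0.072) and the lysosomal sialidase Neu1 at -0.024 (SE 0.044). Of 13 cell cycle genes 2 passed the filter, Pcna at -0.022 (SE 0.044) and Ccnd1 at -0.025 (SE 0.057), and Mki67, Top2a and Cdk1, which mark dividing cells, were below it.

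Ligands and receptors that act on precursors showed no call among the 19 measured of 26 listed (median 0.02 log2 units), and 4 had an unadjusted p below 0.05. Fgfr3, a fibroblast growth factor receptor that astrocytes also carry, was at 11.33 ± 0.05 (SD, n = 7) with ethanol and 11.49 ± 0.09 (SD, n = 8) with water (log2 -0.16, SE 0.041, limma adjusted p = 0.089). Fgfr2, the form found in mature oligodendrocytes, was at 11.79 ± 0.10 (SD, n = 7) and 11.58 ± 0.12 (SD, n = 8), with the opposite sign (log2 0.21, SE 0.056, limma adjusted p = 0.109). Cxcr4 was at 0.20 (SE 0.066) and Igf1r at 0.07 (SE 0.034). Pdgfa, which encodes the ligand of Pdgfra, was at 0.031 (SE 0.044), and Ptn, which encodes the pleiotrophin that binds Ptprz1, at -0.14 (SE 0.079); neither passed (limma adjusted p = 0.815 and 0.518).

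**Figure D3:**
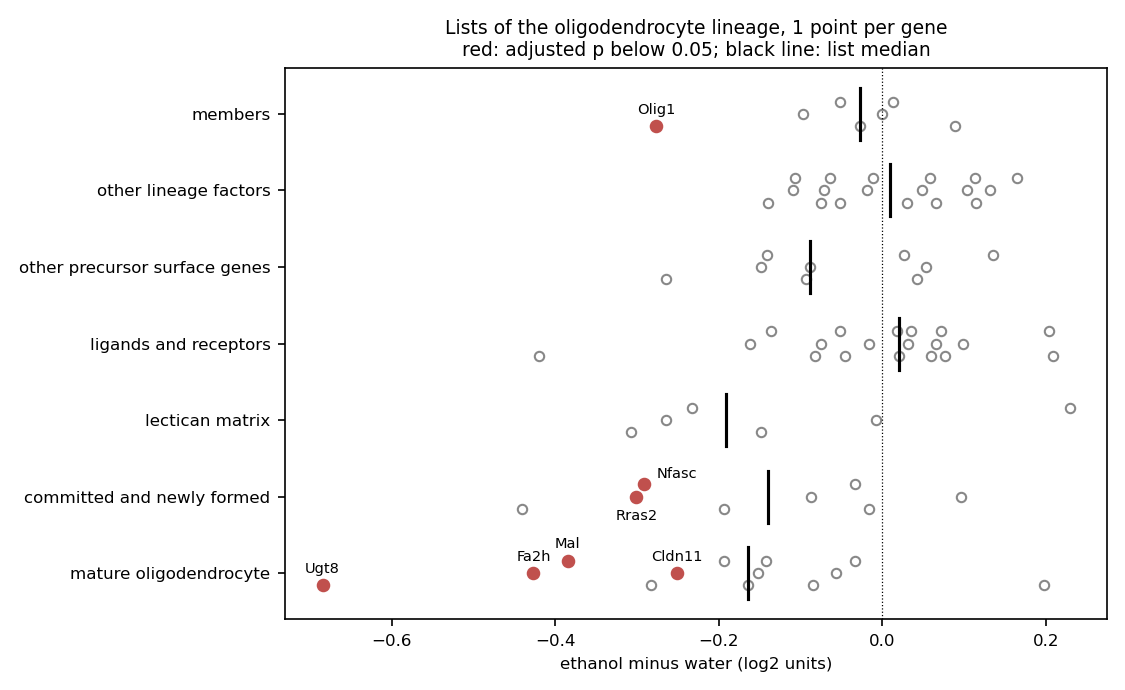
Ethanol minus water in log2 units for each measured gene of 7 lists of the oligodendrocyte lineage, 1 point per gene; red points passed an adjusted p below 0.05 and the black line is the list median. Called genes are found among mature (4) and newly formed (2) oligodendrocyte genes and, among the members, in Olig1.

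Other cell types of the tissue were read from marker lists, also chosen with earlier results of these data known, so their counts are a description. Of the microglial markers, 4 of 13 rose, where 1.14% of all genes were called. These were Gpr34, Tyrobp, Trem2 and Ctss, at 0.89, 0.41, 0.32 and 0.36 log2 units (limma adjusted p from 4.46e-04 to 0.0411). All 13 means were higher and the median was 0.27 log2 units. The mean of the list ran from 9.49 to 9.79 in ethanol and from 9.15 to 9.55 in water rats. The other 9 did not pass, among them Tmem119 at 0.059, Itgam at 0.056 and C1qb at 0.108. The Ctss call held in only 3 of 15 fits with 1 rat left out, those without ethanol rat 1 or water rats 5 or 6 (adjusted p up to 0.103 in the others), and ended with no filter (0.0585). Of 5 fibroblast markers none was called, 2 had an unadjusted p below 0.05, all had lower means in ethanol rats (median -0.33), and the mean ran from 7.76 to 8.94 and from 8.06 to 9.16. None of 10 astrocyte (median -0.038), 6 mural (-0.033), 5 endothelial (0.04), 6 dopamine neuron (0.15) or 7 other neuron (0.078) markers was called by limma, and 2 of the astrocyte markers and 0 of the other 24 had an unadjusted p below 0.05. The part of these cell types in the Olig1 difference was not tested.

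Rats differed in lineage transcripts within each group, and 1 control stood apart. Water rat 5 had the highest value of all 15 rats for Sox10, Olig1, Nkx2-2, Pdgfra and Cspg4, and also the highest mean of the mature oligodendrocyte list, 13.56, where the next control reached 13.33. It was not the highest for Ptprz1 or Bcan by the brightest probe set of each. In the second Ptprz1 probe set, 1388015_at, water rats 3 and 5 were both at 11.28, the highest value. Without water rat 5 the Olig1 difference was -0.24 log2 units (SE 0.055, limma adjusted p = 0.0524).

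Of 28 correlations across the 15 rats, 21 between pairs of the 7 measured genes and 7 with the mature list mean, 2 passed after adjustment. Here and below each gene stands by its brightest kept probe set, for Ptprz1 1368350_at and for Bcan 1387934_at. Their second probe sets were not correlated with other genes. Olig1 followed the mature list mean (Pearson r = 0.835, Spearman rho = 0.761, permutation p = 1.2e-04 and 0.00144, adjusted 0.00336 and 0.0403). Without the 2 rats farthest from the median of Olig1, r was 0.737, and it was 0.659 within ethanol and 0.725 within water rats. Sox10 followed the list mean as well (r = 0.72, rho = 0.611, permutation p = 0.00351 and 0.0179, adjusted 0.0491 and 0.145), but r fell to 0.419 without its 2 farthest rats, so that relation rested on them.

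After the group means had been subtracted, 8 of the 28 passed. The list mean then went with Sox10 (r = 0.817, rho = 0.854, permutation p = 1.7e-04, adjusted 0.00476), Pdgfra (r = 0.744, adjusted permutation p = 0.0236), Olig1 (r = 0.701, 0.0263), Nkx2-2 (r = 0.681, 0.0263) and Cspg4 (r = 0.666, 0.034). Sox10 also went with Nkx2-2 (r = 0.735, adjusted permutation p = 0.0232) and Olig1 (r = 0.656, 0.034), and Olig1 with Pdgfra (r = 0.657, 0.038). The 2 rats farthest from the median of the lineage gene were then left out. In a pair of lineage genes the median was that of the gene named first. Without these rats r was 0.787 for the list mean with Sox10, but 0.386 with Olig1, 0.527 with Nkx2-2, 0.523 with Pdgfra and 0.285 with Cspg4. It was then 0.572 for Sox10 with Nkx2-2, 0.424 for Sox10 with Olig1 and -0.0667 for Olig1 with Pdgfra, so this last relation rested on those rats. The list mean gave r = -0.142 with Ptprz1 (0.156 without the 2 farthest rats). With Bcan it gave r = 0.119 (rho = 0.414), and 0.596 without the 2 farthest, so the low value rested on those rats. Each rat was also left out in turn, an alternative added once the data had been seen. Without water rat 5, 0 of 28 passed in either form, the smallest adjusted permutation p being 0.0627 (Olig1 with the list mean, r = 0.744) and, after subtraction, 0.243 (Sox10 with the list mean, r = 0.674). Without any other rat 1 to 5 passed and, after subtraction, 1 to 11, the fewest being 1 without ethanol rat 1 and 3 without ethanol rat 2.

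**Figure D4:**
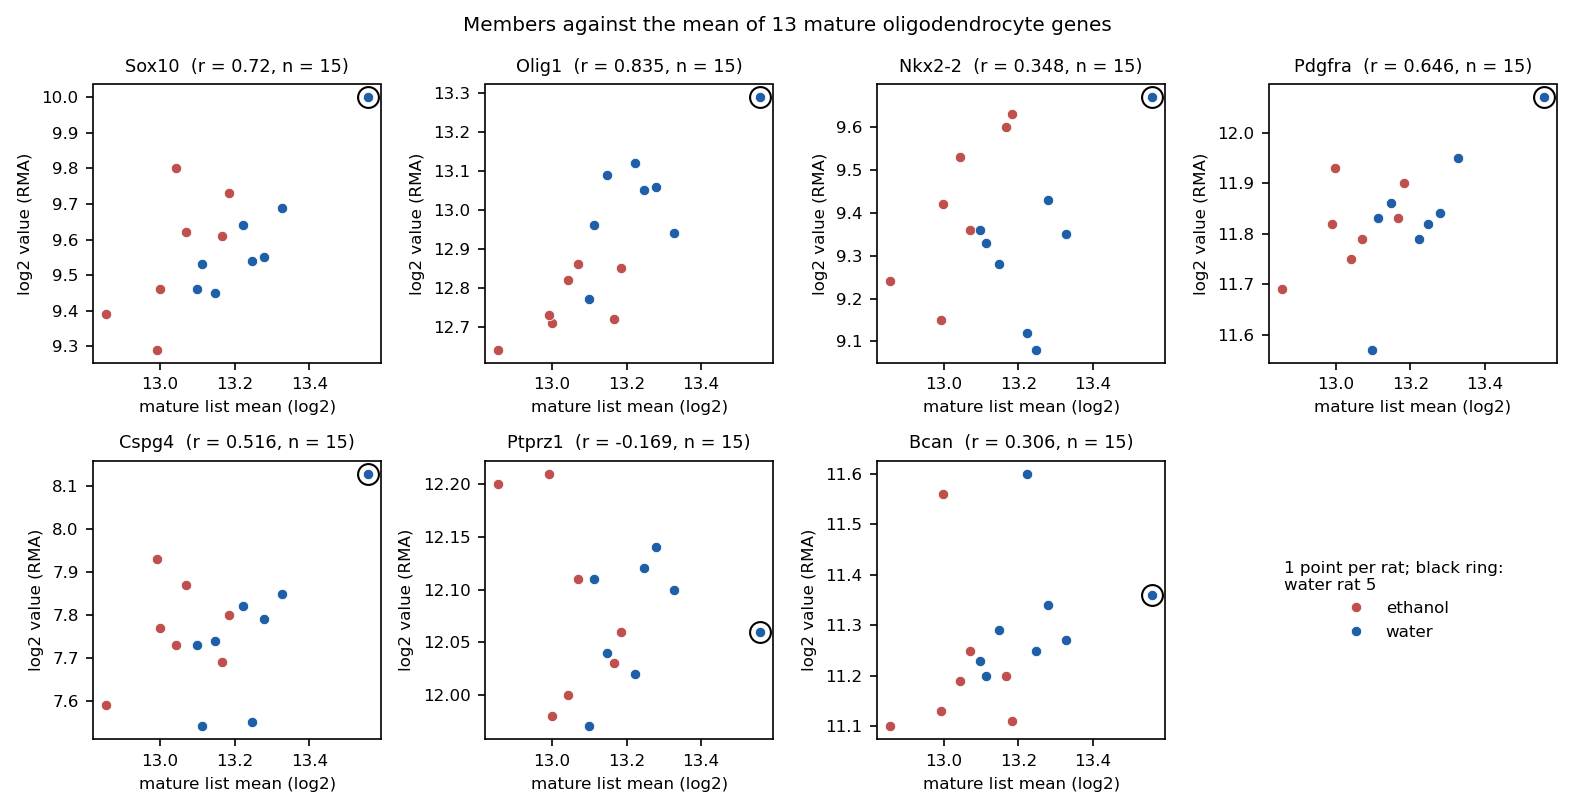
Log2 value of each of the 7 measured genes (vertical) against the mean log2 value of 13 mature oligodendrocyte genes (horizontal), 1 point per rat, ethanol in red and water in blue, with Pearson's r over 15 rats; a black ring marks water rat 5. Each gene is shown by its brightest kept probe set. Water rat 5 is at the top right in Sox10, Olig1, Nkx2-2, Pdgfra and Cspg4, and not in Ptprz1 or Bcan.

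Each of the 7 genes was also set against means of the astrocyte, mural and fibroblast markers, a choice made after seeing the values. None of these 21 correlations passed after adjustment. The highest was Bcan with the astrocyte mean (r = 0.693, rho = 0.704, permutation p = 0.00341, adjusted 0.0716; r = 0.545 without the 2 farthest rats). Ptprz1 with the astrocyte mean gave r = -0.0066, Pdgfra with the fibroblast mean 0.245 and Cspg4 with the mural mean 0.27.

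The genes most like each lineage gene were taken as the 3 with the highest Pearson r over the 15 rats. They are given as a description, since the highest of many correlations are large by selection. The group means were not subtracted, so a gene with a group difference tends to draw genes that share it. Olig1 was most like Fgfr3 (r = 0.926, rho = 0.843), Cldn11 (r = 0.924, rho = 0.825) and Arrdc2 (r = 0.918, rho = 0.896), which had differences of -0.16, -0.25 and -0.32 log2 units between the groups. Without the 2 rats farthest from the median of Olig1 these r were 0.866, 0.887 and 0.872.

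Sox10 was most like Aplp1 (r = 0.899), the glycine transporter gene Slc6a9 (r = 0.889) and Slc48a1 (r = 0.888). Nkx2-2 was most like Hopx (r = 0.859), Rasgrp3 (r = 0.844) and S100a1 (r = 0.838). Pdgfra was most like Ttyh2 (r = 0.884), Stard13 (r = 0.873) and Map4 (r = 0.863). Ptprz1 was most like Tdh (r = 0.899), Lmo4 (r = 0.895) and Fam167a (r = 0.886). These values belong to probe set 1368350_at, which did not vary together with the other probe set of Ptprz1 (r = 0.018).

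For Cspg4 and Bcan the likeness leaned on few rats. Cspg4 was most like Efhd1 (r = 0.805), Cntf (r = 0.786) and Frmd5 (r = 0.782), which dropped to 0.517, 0.535 and 0.572 without its 2 farthest rats. Bcan was most like Col11a2 (r = 0.843), Slc15a2 (r = 0.798) and Nr4a1 (r = 0.793), which dropped to 0.563, 0.325 and 0.634. Of the 21 nearest genes, only Cldn11 was itself called between ethanol and water (limma adjusted p = 0.0369).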

How the data were processed

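Total RNA of the ventral tegmental area was hybridised to Affymetrix rat arrays, 1 per animal, after 2 cycles of amplification from 25 ng, per the labels' protocols. The log2 values were deposited by the authors, who used RMA per the submitters' processing notes; its software is not given in the sources used here. The 31099 probe sets included 57 controls, which were left out. Symbols came from GEO's platform annotation, checked by Entrez number against the RefSeq table of GRCr8: 20837 probe sets had 1 symbol, 425 several and 9780 none.

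Probe sets with a mean at or above the 40th percentile (18625) entered limma 3.58.1 (lmFit and eBayes under R 4.3.3, two-sided, without covariates), after a test on simulated data. The number of arrays limits the precision (median SE 0.056 log2 units). Lists used the brightest kept probe set per gene. Correlations used 100000 permutations. By rule, the text names all lineage genes, of each list the called genes and up to 4 with the smallest p, and for each lineage gene the 3 with the highest r among those with an SD of at least 0.1; Myrf, Pdgfa, Ptn, Mki67, Top2a, Cdk1, Opalin, Tmem119, Itgam and C1qb were named after their values were seen. The genes and lists were chosen with earlier results of these data known. Alternatives were other filters, median centring, a trended robust variance, array weights, a replicate block, 2 covariates, an exact permutation test, and each rat left out. No day, slide or litter was given, so no batch was tested.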

Additional observations from a re-analysis of the deposited data

Results flagged for a closer look

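In 4 of the 22 groups of values (11 probe sets in 2 treatments), the highest or lowest rat stood far from the rest, by a gap above the 95% critical share of the group's range; chance gives about 1 in 20 such groups. For Sox10, water rat 5 was at 10 and the other controls between 9.45 and 9.69, a gap of 0.556 of the range. For Olig2 (1379593_at), ethanol rat 2 was at 5.16 and the others between 5.39 and 5.49 (0.708), at a level below the filter. For Bcan (1387934_at), ethanol rat 5 was at 11.56 with the others between 11.10 and 11.25 (0.675), and water rat 7 was at 11.60 with the others between 11.20 and 11.36 (0.609).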

How the results depend on the processing

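The count of lineage probe sets called, 1 as reported, was 0 with no filter, 0 with the looser filter at the 20th percentile and 0 with the replicate block, and 0 to 1 with 1 rat left out. The Olig1 difference lay between -0.315 and -0.14 in the alternatives that can move it (centring, weights, block, covariates, a rat left out). None of the other 10 probe sets was called in any of 245 alternative values (smallest adjusted p 0.118). The sign of the difference changed in 10 alternatives for Cspg4 and in 6 each for Ptprz1 1368350_at and Bcan 1369831_at. It changed in 2 each for Sox10 and Pdgfra and in 1 for Ptprz1 1388015_at. With the mature list mean as a covariate Sox10 was at 0.18, Cspg4 at 0.16 and Pdgfra at 0.11 log2 units. The replicate block, the animal number over the 7 shared numbers, gave 59 called probe sets against 173 and 3 called list genes against 10, with Olig1 at adjusted p = 0.163; of those 10, only Gpr34 (0.0367) and Nfasc (0.0443) were called in it. After subtraction of the group means, same-numbered rats correlated from -0.415 to 0.295. The value was above 0.1 for numbers 1, 5, 6 and 8 and below it for 2, 4 and 7. Only ethanol rat 8 was most like the water rat of its own number. These values cannot show whether same-numbered rats shared more than a number, and the labels do not say. With 1 rat left out the counts were 100 to 180 probe sets (100 without ethanol rat 7, 102 without ethanol rat 8) and 6 to 12 list genes. Of the correlations 2 passed, and 0 to 5 with 1 rat left out; after subtraction of the group means 8 passed, and 0 to 11 with 1 rat left out (0 in both forms without water rat 5). Dim signal limits Olig2, and Gpr17 and Neu4 were not analysed here.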

Other observations

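Some of the list genes varied between rats far more than the lineage genes did, whose SD reached 0.21 log2 units in a group at most (genes chosen after their values were seen). Igf1, a growth factor that acts on oligodendrocytes, ran from 7.28 to 8.91 (median 8.40) in ethanol and from 7.02 to 9.77 (median 8.96) in water rats. Slc17a6, the vesicular glutamate transporter of midbrain and thalamic neurons, ran from 11.15 to 12.76 and from 9.98 to 13.31. Hapln4, a link protein of perineuronal nets, ran from 8.36 to 9.61 and from 8.45 to 10.22. Tcf7l2, which is used by oligodendrocytes and by thalamic neurons, had an SD of 0.49 in ethanol and 0.13 in water rats, and its highest ethanol value, 11.68, stood against a median of 10.39.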
